A study of Mus musculus with 12 samples.

Results

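The clustered protocadherins are 3 tandem gene arrays, alpha, beta and gamma, that lie on mouse chromosome 18 beside Vaultrc5, the vault RNA gene deleted in the knockout mice of this series. Members were taken by name from the gene table, as every gene whose symbol starts with Pcdha, Pcdhb or Pcdhg followed by its array number or subtype. This gave 58 genes of 55450, namely 14 alpha, 22 beta and 22 gamma members. Among them are the 5 C-type genes, Pcdhac1 and Pcdhac2 at the end of the alpha array and Pcdhgc3, Pcdhgc4 and Pcdhgc5 at the end of the gamma array. The other gamma genes are 12 gamma A and 7 gamma B members. The symbol Pcdha11 stood for 2 genes, ENSMUSG00000007440.10 and ENSMUSG00000102206.5, which are kept apart by identifier. Pcdhgb8 is annotated as a polymorphic pseudogene.

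Total RNA was sequenced from the brains and livers of males that were 7 to 9 weeks old. The labels give 4 groups of 3 libraries each, which are brain and liver of wild-type mice (Vaultrc5+/+ in the extraction protocol, "flx" in the titles) and brain and liver of Vaultrc5-/- mice. The labels do not say whether the controls carry a floxed allele, how the deletion was made or which part of the brain was taken. They also do not tie libraries to animals, so that p-values measure the spread between these samples, which may be partly technical.

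Clustered protocadherins are cell adhesion proteins of the neuronal membrane that carry a row of cadherin repeats outside the cell and bind the same isoform on a facing cell. In the alpha and gamma arrays each variable exon has its own promoter and is spliced to a common set of 3′ exons, while each beta gene is a single exon. Neurons choose alternate alpha, beta, gamma A and gamma B promoters in different combinations, by a process that involves the insulator protein CTCF, cohesin and DNA methylation, whereas C-type promoters are used more uniformly. The combination is known for letting the branches of a neuron recognise one another, and the gamma C-type isoforms are known for roles in neuron survival and in dendrite and circuit formation.

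In GENCODE M21 on GRCm38 all 58 genes lie on the plus strand, as does Vaultrc5. The alpha array runs from 36930184 to 37187661, the beta array from 37264938 to 37524479 and the gamma array from 37661793 to 37841873 on chromosome 18. Their first genes start 128, 463 and 860 kb past Vaultrc5. The arrays differ in how far their reads can be given to 1 gene. Of the exon bases of an alpha gene, a median of 53.6% lie in exons shared with another gene on the same strand, and of a gamma gene 44.7%. Pcdha4 has 494 private bases only, because 91.4% of its exon bases are shared. The 22 beta genes share none, apart from an overlap between neighbours that takes at most 9.67% of a gene.

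The deposited values were divided in part. A value was called whole when it lay within 0.005 of a whole number. In brain, 7 of 22 beta genes had whole values in every library, and 0 of 14 alpha and 0 of 22 gamma genes did. No brain value was whole for 13 alpha, 17 gamma and 2 beta genes. The beta sum was whole in 5 of 6 brain libraries, and the alpha and gamma sums in 0 of 6. Values are deposited to the nearest hundredth, and this rounding alone could account for the beta sum that was not whole (4031.01), for 1 alpha sum (3305.97) and for 2 gamma sums (12131.01 and 13710.01), but not for the other 5 alpha and 4 gamma sums. Beta genes with fractional values included Pcdhb6, Pcdhb7, Pcdhb17, Pcdhb21 and Pcdhb22. Single values of all alpha and gamma genes, and of the 15 beta genes that were not always whole, therefore carry an uncertainty of assignment that the replicate error does not cover. For that reason each array is also given as a sum. Antisense transcripts cross several members, among them Gm10545 over Pcdha11 and Pcdha12, and the use of strand in counting is not given in the sources used here.

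Before the members were read, the libraries were checked. Brain libraries held 14844971 to 18567381 counts each and liver libraries 23247449 to 27155480. Vaultrc5 had 4, 1 and 4 counts in wild-type brain and 33, 39 and 48 in wild-type liver. It had 0 counts in each of the 6 knockout libraries, and wild-type brain stood near the floor of detection. All 10 neuronal markers stood above 3 counts in brain and their summed level was 5591 to 7527 CPM (counts scaled to a common library size) there, against 20.6 to 26.5 in liver. The 8 hepatocyte markers summed to 54259 CPM or more in liver and to 0.94 to 585 CPM in brain, where Alb stood at 0.30 CPM or less and Ttr, which choroid plexus also makes, reached 584 CPM. Brain libraries of one group differed in regional and glial markers. The 8 cerebellar markers summed to 2220, 157 and 594 CPM in wild-type replicates 1, 2 and 3, against 2115, 129 and 965 CPM in the knockout. The 8 choroid plexus markers summed to 267, 5.35 and 502 CPM in the wild type and to 682, 11.3 and 14.3 CPM in the knockout. The 8 oligodendrocyte markers summed to 3587, 2210 and 7560 CPM in the wild type, against 2595, 4056 and 2481 CPM in the knockout, and the 8 striatal markers to 211, 184 and 418 CPM, against 533, 456 and 146 CPM. Replicate 3 of wild-type brain stood apart from the other brain libraries in its oligodendrocyte sum and in Tph2, a serotonin neuron gene, at 8.12 CPM there and 1.06 CPM or less elsewhere in brain.

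In brain the clustered protocadherins took 0.117% to 0.141% of all counts. Levels of different genes are compared as CPM per kb of annotated exon, scaled within a tissue. Of the 58 members, 3 C-type genes stood highest in wild-type brain. Pcdhgc3 had 22.8 ± 6.58 CPM per kb (SD, n = 3), Pcdhgc5 had 21.5 ± 8.01 and Pcdhac2 had 14.04 ± 1.99. Pcdhgc3 and Pcdhgc5 differed by less than their spread, and Pcdhac2 lay within 1 SD of Pcdhgc5. Pcdhga11 came next with 8.68 ± 0.758 CPM per kb, clear of Pcdhac2. The other C-type genes were not set apart, since Pcdhgc4 had 5.58 ± 1.69 CPM per kb and Pcdhac1 had 2.52 ± 0.216, near the medians of their arrays.

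Among the alternate genes, gamma members were the highest per kb. The median over genes in wild-type brain was 5.33 CPM per kb for the 12 gamma A, 3.50 for the 7 gamma B, 2.40 for the 22 beta and 1.98 for the 12 alpha genes. Pcdha12 led the alternate alpha genes with 3.67 ± 0.852 CPM per kb and Pcdhb17 led the beta genes with 5.21 ± 0.422. At the other end, Pcdha1, the alpha gene nearest to Vaultrc5, had 0.42 ± 0.113 CPM per kb and Pcdhb1 had 0.022 ± 0.021. Pcdhb1 was the only member whose mean wild-type brain count (1 count) was under the floor of 3 counts taken as the limit of detection here.

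**Figure D1:**
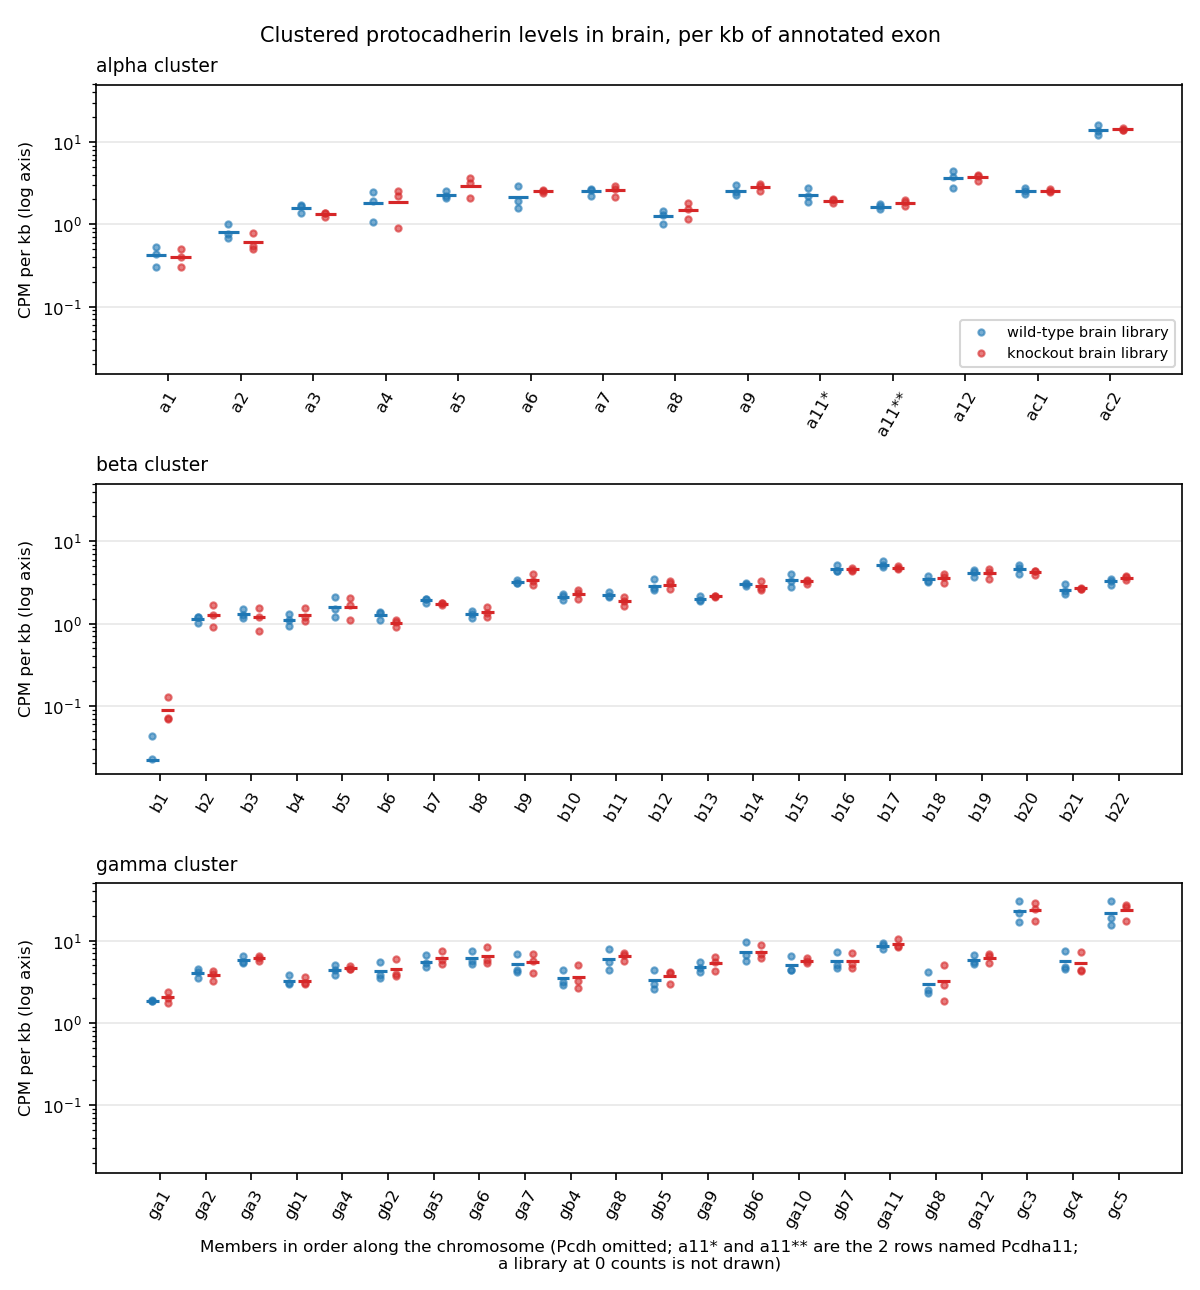
Level of each of the 58 members in brain, in CPM per kb of exon on a log axis, with points for the 3 wild-type (blue) and 3 knockout (red) libraries and bars for group means. Pcdhac2, Pcdhgc3 and Pcdhgc5 stand highest, Pcdhb1 lowest, and the bars of both genotypes lie near each other for most members.

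Within an array, genes further along the chromosome tended to have more RNA. Spearman's rho between level per kb in wild-type brain and order along the array was 0.76 over 14 alpha, 0.86 over 22 beta and 0.51 over 22 gamma genes. The alpha and gamma values include the C-type genes at the array ends, among them the highest members Pcdhac2, Pcdhgc3 and Pcdhgc5. No value was computed over the alternate genes alone. These points share libraries and, in the alpha and gamma arrays, exons, and the values are descriptions only. In the beta array, whose genes do not share exons, the 5 genes Pcdhb2 to Pcdhb6 lay between 1.11 and 1.61 CPM per kb, and the 5 genes Pcdhb16 to Pcdhb20 between 3.44 and 5.21. The last beta genes, Pcdhb21 and Pcdhb22, were lower again, at 2.59 and 3.24 CPM per kb. Between the genotypes' brain levels per kb, Spearman's rho was 0.960 over the alpha, 0.980 over the beta and 0.977 over the gamma genes, and Pearson's r 0.997, 0.989 and 0.998.

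The first comparison asked whether the members next to the deleted gene differ between knockout and wild-type brain. None of the 57 members tested passed the edgeR quasi-likelihood test at a Benjamini-Hochberg adjusted p under 0.05, nor did any other gene, so that the background is 0% called. At an unadjusted p under 0.05 there were 0 of 57 members, beside 0.675% of all 18075 genes tested. Leaving out 1 library gave 2 members (1.61% of genes) without replicate 1 of the wild type, 1 (3.32%) without replicate 2 of the wild type and 1 (1.10%) without replicate 1 of the knockout, and 0 without each of the other 3 libraries. The DESeq2 Wald test called 0 members as well. The median log2 fold change was 0.03 for alpha, 0.00 for beta and 0.09 for gamma members, and -0.01 over all genes tested. Of the 57 estimates 39 were above 0 and 18 below. The median size of a change, without its sign, was 0.10 on the log2 scale for members and 0.10 for all genes.

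As array sums, wild-type brain held 197, 258 and 215 CPM of alpha RNA and knockout brain 214, 241 and 239 CPM. For beta the values were 267, 265 and 238 CPM in the wild type, against 258, 256 and 249 CPM in the knockout. For gamma they were 885, 791 and 709 CPM in the wild type, against 904, 753 and 858 CPM in the knockout. The ranges of both genotypes overlapped in every array. Replicate 3 of the wild type, with the high oligodendrocyte markers, had the lowest beta and gamma sums of the 6 brain libraries, and the part of its cell makeup in this was not tested. Without it the log2 ratio of knockout to wild type was 0.02 for alpha, -0.06 for beta and 0.00 for gamma, and 0 of 57 members were called. The ratio of the knockout to the wild-type mean was 1.03 for alpha (231 ± 15.1 over 223 ± 31.5 CPM), 0.992 for beta (254 ± 4.80 over 256 ± 16.3) and 1.06 for gamma (839 ± 77.3 over 795 ± 88.1; SD, n = 3).

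**Figure D2:**
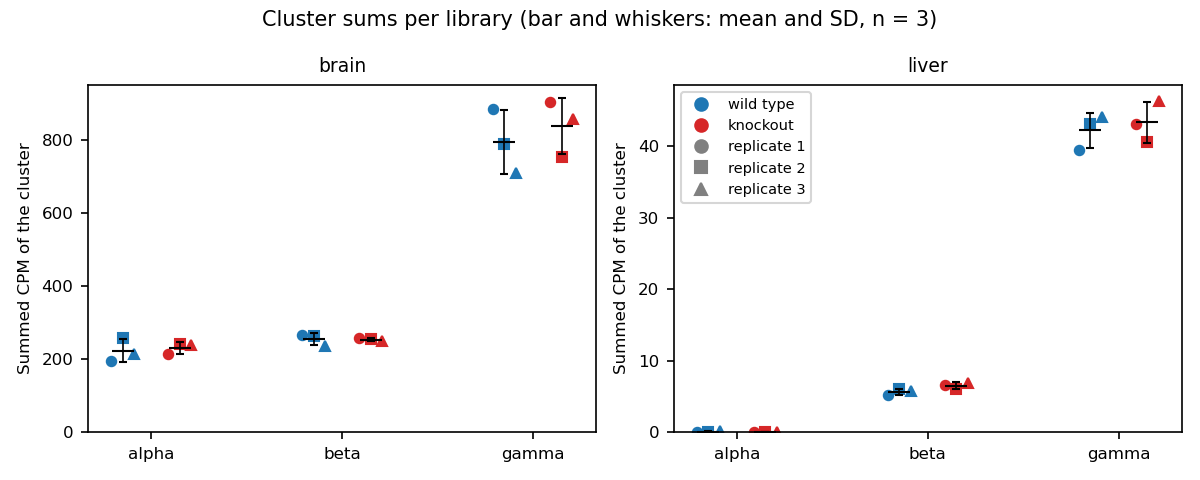
Summed CPM of the alpha, beta and gamma arrays in each library of brain (left) and liver (right), by genotype and replicate number, with the mean and SD of 3 libraries. Brain ranges of wild type and knockout overlap in all 3 arrays, and liver holds gamma and beta RNA with alpha at or near 0.

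The 95% intervals of the fold changes give the sizes of change that fit each estimate, not the size that would have passed the adjusted threshold. They lay within 2-fold in either direction for 54 of the 57 members and within 1.5-fold for 33. The exceptions to the 2-fold limit were Pcdha2, Pcdha4 and Pcdhgb8. The narrowest standard error, 0.10, belonged to Pcdhb17, and the widest, 0.44, to Pcdha4. For the C-type genes the log2 fold change in knockout brain was 0.02 ± 0.12 (SE) for Pcdhac1, 0.02 ± 0.12 for Pcdhac2, 0.03 ± 0.26 for Pcdhgc3, -0.07 ± 0.28 for Pcdhgc4 and 0.12 ± 0.29 for Pcdhgc5.

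Pcdhb19, the beta gene with the most counts, had 31.7, 30.1 and 26.3 CPM in wild-type brain, against 33.0, 30.4 and 24.8 CPM in the knockout, and Pcdhb14, which followed, had 27.2, 26.1 and 25.1 CPM against 28.5, 21.9 and 23.7 CPM. Pcdha12 had 14.7, 23.8 and 20.2 CPM against 17.9, 20.9 and 20.6 CPM. The lowest alpha gene, Pcdha1, had 2.79, 1.60 and 2.34 CPM against 2.70, 1.60 and 2.16 CPM, and the lowest gamma gene, Pcdhga1, had 9.75, 9.87 and 10.2 CPM against 12.8, 9.29 and 10.7 CPM. The ranges overlapped in each of these 5 genes, and their log2 fold changes lay between -0.08 ± 0.12 (Pcdhb14) and 0.14 ± 0.15 (Pcdhga1).

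**Figure D3:**
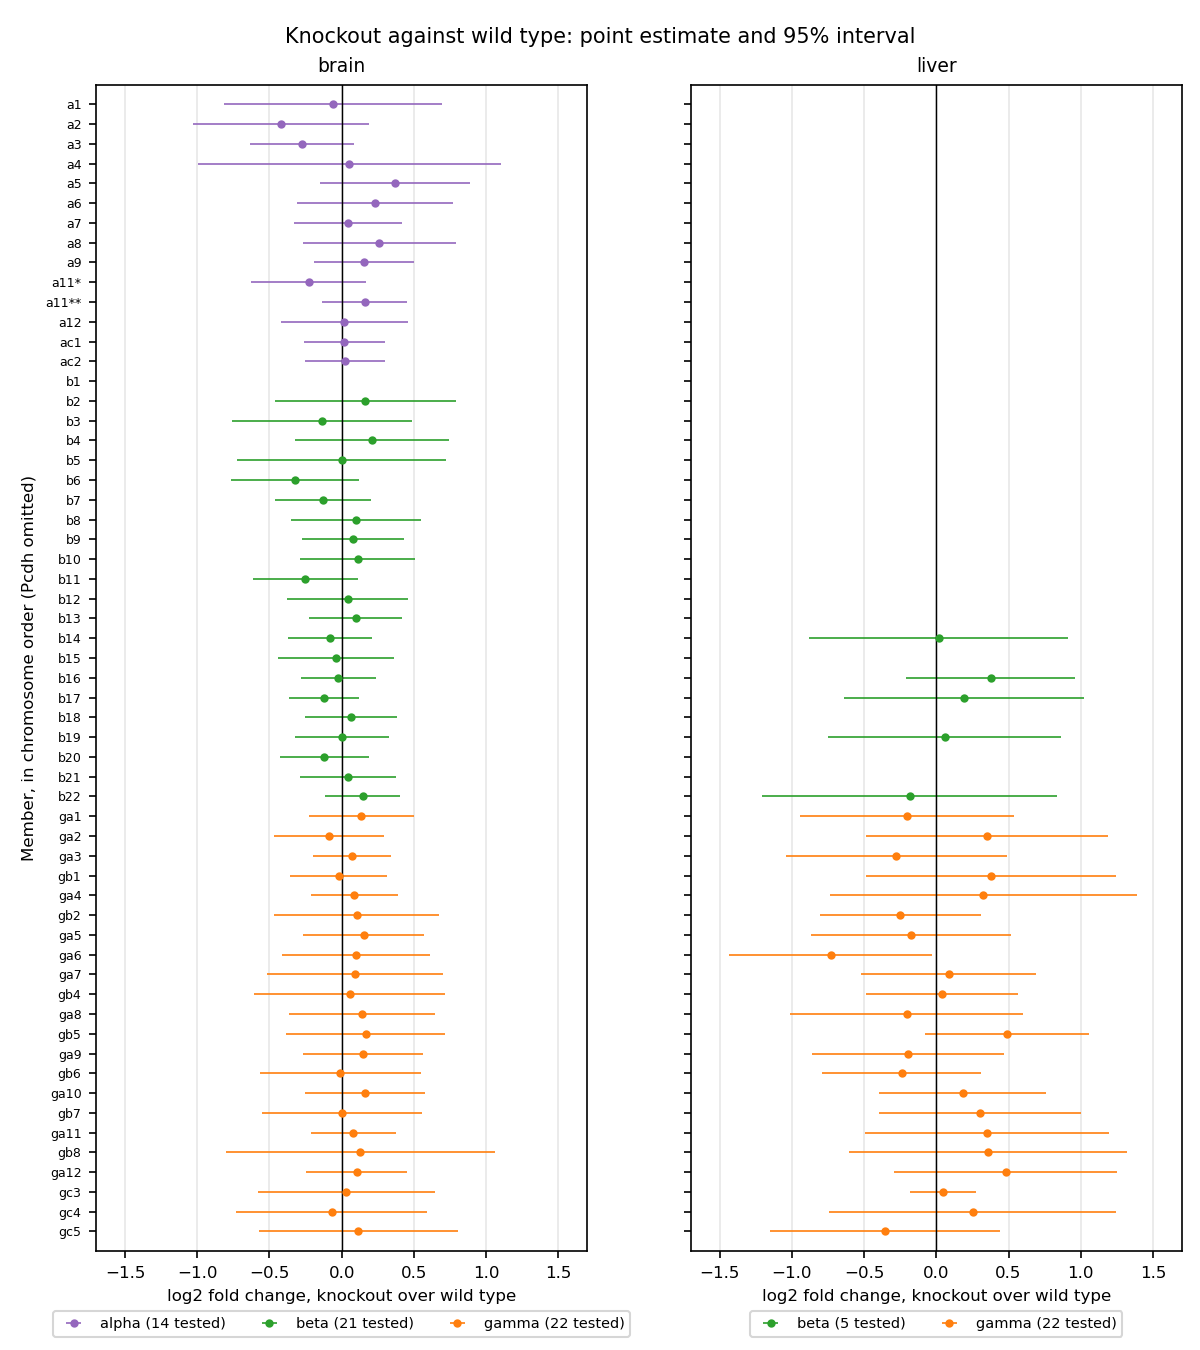
Log2 fold change of each tested member, knockout over wild type, with its 95% interval, in chromosome order from the Vaultrc5 side (top), in brain (57 members) and liver (27 members). All brain intervals include 0, and in liver the interval of Pcdhga6 (-1.44 to -0.03) is the one that does not.

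The members with the smallest p-values in brain were Pcdha3, Pcdhb6, Pcdha5, Pcdhb11 and Pcdha2, all with an edgeR adjusted p of 1.00. Pcdha3 had 7.37, 8.93 and 9.17 CPM in the wild type, against 6.46, 7.33 and 7.23 CPM in the knockout. All 3 knockout libraries were just below the lowest wild-type library. The log2 fold change was -0.28 ± 0.15 (unadjusted p = 0.112).

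Pcdhb6 had 4.16, 5.24 and 5.02 CPM in the wild type, against 4.15, 3.43 and 3.95 CPM in the knockout. The groups were separate, but by a gap far smaller than the spread within either. Its log2 fold change was -0.32 ± 0.19. Pcdhb7, with 6.24, 6.95 and 6.89 CPM against 5.94, 6.21 and 6.24 CPM, was also separate by a hair, with a log2 fold change of -0.13 ± 0.14 (95% interval -0.46 to 0.21). These 3 were the tested members whose brain ranges did not overlap, all lower in the knockout. They are 3 of 57, where 4.23% of all genes tested had separate ranges, 2.48% with the knockout lower and 1.74% with the knockout higher.

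The other genes named by the smallest p overlapped. Pcdha5 had 10.9, 13.3 and 11.5 CPM in the wild type, against 10.7, 18.8 and 16.5 CPM in the knockout, for a log2 fold change of 0.37 ± 0.22. Pcdha2 had 4.10, 5.35 and 3.68 CPM against 2.70, 2.90 and 4.20 CPM (-0.42 ± 0.26), and Pcdhb11 had 9.45, 10.8 and 9.17 CPM against 7.19, 8.22 and 9.26 CPM (-0.25 ± 0.15). Pcdhb1, too low for the test, had 0, 2 and 1 counts in the wild type, against 5, 3 and 3 in the knockout. Its knockout libraries were all above its wild-type libraries, at 5 counts or fewer. As a description over genes that share libraries and exons, Pearson's r between log2 fold change and distance was 0.16 over the 57 members, and 0.14, 0.01 and -0.06 within the alpha, beta and gamma arrays.

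In liver the arrays took only 0.00438% to 0.00540% of all counts. The alpha members together had 2, 3 and 4 counts in the wild-type libraries and 2, 1 and 1 in the knockout, and 8 of the 14 had none in any liver library. Since all 14 alpha genes were at or under the floor in both genotypes, no fold change between genotypes is given for them. The beta array had 5.25, 6.08 and 5.76 CPM in the wild type, against 6.63, 6.04 and 6.97 CPM in the knockout. The gamma array had 39.5, 43.2 and 44.2 CPM in the wild type, against 43.1, 40.7 and 46.3 CPM in the knockout. The beta and gamma sums overlapped between genotypes, while the alpha sum was lower in the knockout without overlap, at 4 counts or fewer per library.

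Of the RNA of all members in liver, gamma genes took 86.5% to 88.2%, against 60.2% to 65.7% in brain. The beta share was 11.7%, 12.3% and 11.5% in wild-type liver and 13.3%, 12.9% and 13.1% in knockout liver, without overlap. The gamma share was 88.1%, 87.5% and 88.2% in wild-type liver, against 86.5%, 87.0% and 86.9% in the knockout, also without overlap, and since the shares sum to the whole these are one shift in composition. The alpha share, from 1 to 4 counts per library, was separate too, at 0.19%, 0.22% and 0.31% against 0.15%, 0.09% and 0.08%. In brain, where the beta share was 18.5% to 20.5%, the genotypes overlapped. The liver difference corresponds to 125, 165 and 148 beta counts against 173, 142 and 164, which did overlap. With 3 libraries against 3, an exact permutation test cannot give a two-sided p under 0.1.

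Liver knockout and wild type were compared over the 27 members that passed the filter on low counts, 5 beta and 22 gamma genes. With edgeR, 0 of the 27 had an adjusted p under 0.05, against a background of 0% of 15329 genes. DESeq2 also called 0 of the 27, while calling 10 other genes. At an unadjusted p under 0.05 there was 1 of 27 members, Pcdhga6, against 3.50% of all genes. That count was 0 without replicate 1 of the wild type (beside 3.11% of all genes) and without replicate 1 of the knockout (3.05%). It was also 0 with the replicate block (6.41%) and by DESeq2 (2.77%). Without replicate 3 of the wild type it was 2 of 28 members (2.97%), and with no filter beyond 1 count 2 of 49 (2.77%). The joint fit of all 12 libraries gave 5 of 57 (3.67%), where 30 of the 57 passed only through brain. Without replicate 3 of the knockout the count was 1 of 27, beside 7.23% of all genes. The median log2 fold change was 0.06 over the 27 members and 0.01 over all genes tested. The 95% interval lay inside a 2-fold change in either direction for 13 of the 27. Standard errors were larger in liver than in brain for these members except Pcdhgb4 (0.23 against 0.28) and Pcdhgc3 (0.10 against 0.26).

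Pcdhga6, a gamma A isoform, had 1.93, 2.06 and 1.13 CPM in wild-type liver, against 0.958, 0.936 and 1.19 CPM in the knockout. The knockout values lay together and the third wild-type library fell among them. The log2 fold change was -0.73 ± 0.30 (unadjusted p = 0.0436, edgeR adjusted p = 0.992). With the replicate number as a block it was -0.70 ± 0.32 (unadjusted p = 0.0641, edgeR adjusted p = 0.803). Over all alternatives its adjusted p ran from 0.676 to 1.00.

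Pcdhgb5 had 1.68, 2.06 and 1.21 CPM in wild-type liver, against 2.34, 2.21 and 2.42 CPM in the knockout, a log2 fold change of 0.49 ± 0.24. Pcdhb16 had 0.840, 0.884 and 0.934 CPM against 0.996, 1.23 and 1.23 CPM (0.38 ± 0.25), from 20 to 29 counts per library. These 2 were the tested members with separate ranges, both higher in the knockout, which is 2 of 27 where 9.84% of all genes had separate ranges, 4.72% with the knockout higher and 5.12% with it lower. Pcdhb7 and Pcdhb10, which did not pass the filter in liver, also had separate ranges with the knockout higher, from 0 to 2 counts in each wild-type library. Pcdhga12 (0.48 ± 0.33) and Pcdhgb2 (-0.25 ± 0.24) overlapped. Pcdhgc3, the member best covered in liver, had 13.1, 13.1 and 11.8 CPM in the wild type, against 12.6, 13.6 and 13.0 CPM in the knockout. Its log2 fold change was 0.05 ± 0.10 with a 95% interval of -0.18 to 0.28, the narrowest of the 27.

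An interaction term fitted to the 12 libraries tested whether the knockout effect differed between brain and liver. By edgeR 0 of 57 members passed (background 0%), and 5 had an unadjusted p under 0.05, beside 2.43% of 20141 genes. Only 27 of the 57 passed the filter within liver alone. The other 30 passed through brain and were too low in liver for a test there. For these 30 the lack of a call does not show that the knockout effect is alike in both tissues. The count of 5 was 2 without replicate 1 of knockout brain (beside 2.49% of all genes) and 8 without replicate 2 of knockout liver (2.42%). It was 3 without replicate 2 of wild-type brain (3.32%), replicate 2 of wild-type liver (2.3%), or replicate 1 (2.47%) or 3 (3.99%) of knockout liver. DESeq2 called 0 members. Of the 5, Pcdhga6 had a difference of -0.85 ± 0.37 (liver effect minus brain effect, log2, adjusted p = 1.00). The other 4, Pcdhb2, Pcdhb7, Pcdhb10 and the Pcdha11 gene ENSMUSG00000102206.5, rest on 0 to 2 counts per wild-type liver library.

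The second comparison set brain against liver. Of the 57 members tested, 30 passed the filter only through brain and had to differ, so that counts are given for the 27 that also passed it within liver. All 27 were higher in brain in the wild type (edgeR, adjusted p under 0.05), where 31.0% of genes selected in the same way were. In the knockout again 27 of 27 were higher, against 30.8%. Over all genes tested, without that selection, 78.6% differed in the wild type (43.9% higher and 34.7% lower in brain) and 78.7% in the knockout (43.5% and 35.2%). The median log2 fold change over the 27 was 3.48 in the wild type, against 3.40 in the knockout, beside -0.24 and -0.25 over all genes that passed in liver. The contrasts in both genotypes share no library. In bulk tissue fewer cells of a type and less RNA per cell cannot be told apart.

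The size of the difference varied among the gamma genes. Pcdhgc3 had the smallest, with a log2 fold change of 2.45 ± 0.21 in the wild type (edgeR adjusted p = 2.04e-05) and 2.44 ± 0.19 in the knockout, which is a ratio of 5.48 and 5.42 of the mean levels on the scale of these fits. Pcdhgb2 (2.54 ± 0.24) and Pcdhgb4 (2.64 ± 0.22) followed in the wild type, and Pcdhgb5 (2.58 ± 0.18) and Pcdhgb4 (2.66 ± 0.29) in the knockout. Pcdhgc5 had the largest of the 27, at 6.28 ± 0.36 and 6.74 ± 0.28, or 77.6-fold and 108-fold. The medians over the gamma A genes were 10.0-fold in the wild type and 10.9-fold in the knockout, and over the gamma B genes 8.56-fold and 9.16-fold.

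These scales depend on how brain and liver libraries are normalised. With library totals in place of TMM the median over the 27 members was 4.32 in the wild type, against 4.27 in the knockout, the median over all genes moved from 0.21 to 1.05 and 1.08, and all 27 remained higher in brain. The split of all genes called moved from 8275 higher and 6542 lower in wild-type brain to 11635 and 3997, and in the knockout from 8178 and 6611 to 11668 and 3871.

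Shares within the gamma array do not depend on that scaling. Pcdhgc3 held 33.3%, 30.3% and 26.6% of gamma counts in wild-type liver and 29.2%, 33.6% and 28.0% in knockout liver. In brain its share was 18.6%, 11.8% and 16.7% in the wild type, against 17.5%, 12.6% and 15.3% in the knockout, below every liver library. Pcdhgc5 went the other way, with 13.3% to 29.5% of gamma counts in brain and 1.59% to 3.30% in liver. Pcdhgc4 overlapped between the tissues, at 2.75% to 5.32% in brain and 1.89% to 4.99% in liver, and so did gamma A, at 37.0% to 42.8% and 36.2% to 41.5%. Gamma B held 16.3% to 22.9% in brain and 23.6% to 28.2% in liver, without overlap.

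Per kb, Pcdhgc3 was the highest member in wild-type liver, at 2.30 ± 0.143 CPM per kb, with Pcdhgb6 next at 0.473 ± 0.114. Pcdhgb6, Pcdhga5 (0.447 ± 0.139) and Pcdhgb2 (0.400 ± 0.079) did not differ beyond their spread. Pcdhga9, at 0.378 ± 0.099, was near them. Pcdhgc5, the next highest after Pcdhgc3 in brain, was at 0.153 ± 0.044 CPM per kb in liver.

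**Figure D4:**
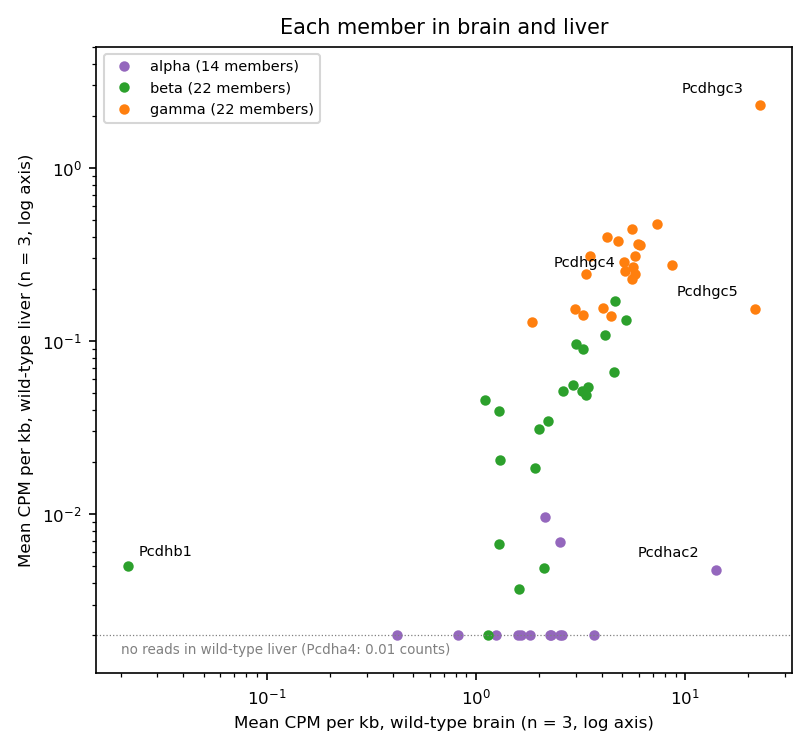
Mean CPM per kb of each member in wild-type brain (horizontal) and wild-type liver (vertical), both on log axes, n = 3 libraries per tissue and scaled within each tissue. Alpha genes lie at or near the bottom line, which marks no reads in wild-type liver (0.01 counts for Pcdha4); Pcdhgc3 is highest in liver, and Pcdhgc5 lies far to the right of other gamma genes of its liver level.

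For the alpha genes the ratio of brain to liver is only a bound. Against a floor of 3 counts per liver library, the 10 alpha genes with no reads in wild-type liver were at least 10.5-fold (Pcdha1) to at least 91.7-fold (Pcdha12) higher in wild-type brain. Pcdha9 and Pcdhac1 were at least 64.4-fold and at least 64.1-fold higher. Pcdhac2 had 2, 0 and 0 counts in wild-type liver and 0 in each knockout liver library, where brain was at least 376-fold higher in the knockout. Among the beta genes with more than 3 counts on average in wild-type liver, the ratio ran from 13.4-fold to 38.3-fold over 14 genes, with Pcdhb16 at 15.02-fold and Pcdhb20 at 38.3-fold. In the knockout it ran from 11.4-fold to 30.2-fold over 13 genes, with Pcdhb16 at 11.4-fold and Pcdhb20 at 25.5-fold. Some of these ratios rest on few reads, as for Pcdhb8 and Pcdhb15, which each had 8, 1 and 1 counts in wild-type liver.

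Brain libraries of one genotype also differed among themselves in gamma composition. Of the 19 gamma A and gamma B genes, 18 were highest in replicate 1 of the wild type and 16 in replicate 1 of the knockout. The median ratio of replicate 1 to replicate 2 over the 7 gamma B genes was 1.59 in the wild type, against 1.56 in the knockout. Pcdhgb8 was the most variable, with 19.0, 10.5 and 11.7 CPM in the wild type, against 23.0, 8.58 and 13.5 CPM in the knockout. Pcdhgc3 had 165, 93.6 and 118 CPM in the wild type, against 159, 95.1 and 132 CPM in the knockout, again highest in replicate 1 of both.

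Pcdhgc5 was lowest where those genes were highest. It had 118, 233 and 141 CPM in wild-type replicates 1 to 3 and 132, 209 and 193 CPM in the knockout. Its share of gamma counts was 13.3%, 29.5% and 20.0% in the wild type, against 14.6%, 27.7% and 22.5% in the knockout. Alternate alpha genes were lowest in replicate 1 for 7 of 12 in the wild type, against 10 of 12 in the knockout, and their sum was 112, 148 and 121 CPM and 113, 144 and 142 CPM. Pcdha4 had 6.18, 14.4 and 10.9 CPM in the wild type, against 5.21, 14.6 and 12.8 CPM in the knockout. Of the 22 beta genes in the wild type, 7 were highest in replicate 1 and 15 in replicate 2, and 14 were lowest in replicate 3. In the knockout 9 were highest in replicate 1, 4 in replicate 2 and 9 in replicate 3, and 11 were lowest in replicate 1.

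The summed cerebellar markers given above, some of which other brain regions also express, were also highest in replicate 1 and lowest in replicate 2 of both genotypes. Among their defining genes Cbln3 had 538, 0.77 and 106 CPM in the wild type, against 484, 0.71 and 207 CPM in the knockout, and Gabra6 215, 0.17 and 48.6 CPM and 214, 0.06 and 76.4 CPM. The lowest libraries were at or near 0 for both. The part of brain region in the gamma and alpha patterns was not tested. Without both brain libraries numbered 1, an alternative chosen after seeing the data, the knockout comparison in brain again called 0 of 57 members, with 2 at an unadjusted p under 0.05, beside 0.874% of all genes in that fit.

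**Figure D5:**
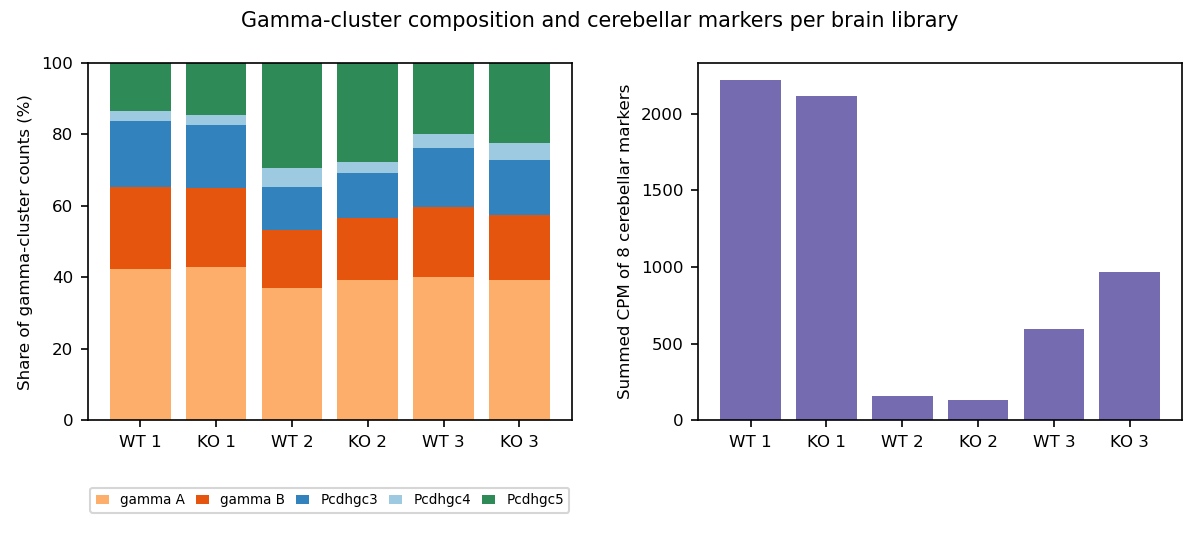
Left, share of gamma-array counts held by gamma A, gamma B, Pcdhgc3, Pcdhgc4 and Pcdhgc5 in each brain library, with wild type (WT) and knockout (KO) of one replicate number side by side. Right, summed CPM of 8 cerebellar markers in the same libraries; the libraries numbered 1 have the smallest Pcdhgc5 share and the highest marker sum, those numbered 2 the reverse.

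Genes that regulate the arrays, or act with their proteins, were read from lists. In knockout brain 0 of 19 regulators of promoter choice (among them CTCF, cohesin subunits and loaders, DNA methyltransferases, Smchd1, Setdb1, Wiz and Rest) passed the edgeR test, nor did any of 21 signalling and processing partners, 11 tested nonclustered protocadherins and 2 genes inside the span, Taf7 and Slc25a2. In knockout liver the counts were 0 of 19, 0 of 18, 0 of 8 and 0 of 2. Over all genes 0 of 18075 passed in brain and 0 of 15329 in liver, so these counts show nothing particular to the lists. The list medians in brain were 0.02, -0.01, -0.08 and -0.15 on the log2 scale, beside -0.01 over all genes. The largest estimate among the regulators in brain belonged to Rest, a repressor of neuronal genes (-0.25 ± 0.17), and among the nonclustered protocadherins to Pcdh11x (-0.35 ± 0.22). Ret, a receptor kinase reported to bind protocadherins, had the largest among the partners (-0.82 ± 0.77), with 16.8, 3.42 and 28.9 CPM in the wild type, against 14.9, 3.79 and 9.08 CPM in the knockout. Taf7, a general transcription factor gene between the beta and gamma arrays, had -0.12 ± 0.21.

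Between the tissues the lists, too, are counted over genes that also passed the filter within liver. Of such genes in the whole table, 31.0% were higher and 43.7% lower in wild-type brain, and 30.8% and 44.2% in knockout brain. Of 8 nonclustered protocadherins that passed, 6 were higher and 1 lower in wild-type brain, and 5 and 1 in the knockout, while Pcdh8, Pcdh10, Pcdh19 and Pcdh20 passed only through brain. The one lower in brain was Pcdh12, an endothelial protocadherin, at -4.76 ± 0.33 in the wild type. Of the 19 regulators, 8 were higher and 7 lower in wild-type brain. Of 18 partners that passed, 12 were higher and 6 lower in each genotype, and Ret, Nlgn1 and Wasf3 passed only through brain.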

How the data were processed

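Per the labels' protocols, DNase-treated TRIzol RNA was depleted of ribosomal RNA and made into stranded total RNA ligation libraries, read from a single end. The submitters' processing notes name cutadapt, STAR and mm10. The tool that made the counts, and whether it used strand, are not given in the sources used here. The authors deposited expected counts per gene, neither normalized nor pooled. All 55450 identifiers matched GENCODE M21.

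Counts were rounded (sums used unrounded values) and fitted over the whole table with the edgeR 4.0.16 quasi-likelihood test (R 4.3.3, limma 3.58.1, TMM, robust, filterByExpr with a minimum count of 10 and total of 15, Benjamini-Hochberg threshold 0.05). Each comparison used its own 6 libraries and the interaction all 12. SE is the absolute log2 fold change over the square root of F. Intervals are 95% t intervals. CPM use TMM sizes within a tissue, and brain to liver ratios the sizes of the tissue fits. Depth gives 3 counts, the floor, a level of 0.162 to 0.202 CPM in brain and 0.110 to 0.129 in liver. Floors cover counting error only. The fitting code was tested on simulated data.

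Alternatives were DESeq2 1.42.0, its size factors, library totals, no filter beyond 1 count, a mean of 1 CPM, no robust estimation, rounding down, a threshold of 0.1, a joint fit of the 12 libraries, the replicate block and each library left out. Members and lists were chosen with earlier results of these data known. Named genes were members called between genotypes or, with none, the 5 with the smallest p in each tissue, the C-type genes, the extremes of level per array, the extremes between tissues, the highest in liver, and the largest estimates of each list. Pcdhb7, Pcdhb10, Pcdhb17, Pcdhb20, Pcdhga11, Pcdha4 and Pcdhgb8, the genes outside the 2-fold limit and the restriction to 27 members between tissues were chosen after values were seen. Wild-type and knockout replicates share numbers in the titles. Over 13353 genes, the deviations of same-numbered liver libraries from their group means correlated at 0.26, 0.31 and 0.35, which was taken as pairing. The main fits nevertheless used no block in either tissue, so spread shared by same-numbered libraries stayed in their error. With the block, genes at an unadjusted edgeR p under 0.05 went from 0.675% to 2.25% in brain and from 3.50% to 6.41% in liver.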

Additional observations from a re-analysis of the deposited data

Results flagged for a closer look

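Pcdhb7 was lower in all 3 knockout than in all 3 wild-type libraries of brain, and higher in all 3 of liver. In brain it had 105, 126 and 118 counts in the wild type, against 89.5, 105 and 101 in the knockout, or 6.69 ± 0.392 and 6.13 ± 0.167 CPM (SD, n = 3). In liver it had 1, 2 and 2 counts in the wild type, under the floor, against 3, 6 and 6.72 in the knockout, so that no fold change is given for liver alone. The fitted difference, knockout effect in liver minus that in brain, was 1.79 on the log2 scale. It rests on the same liver counts under the floor and depends on the prior count of the fit, so it is neither a measured size nor a bound. The interaction term of edgeR gave an unadjusted p of 0.00706 and an adjusted p of 1.00 over 20141 genes, so the difference does not pass the correction. No value of Pcdhb7 was whole in brain, although its annotated exon is shared with no other gene on the same strand. With 3 libraries a group, no search for outlying samples was made.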

How the results depend on the processing

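The counts of members called between the genotypes, and in the interaction, were 0 under all alternatives run, and direction and side of the threshold were kept in 345 of 345 alternative values of the 5 members with the smallest p in each tissue and of the extremes between tissues. That agreement is no support in itself. The extremes Pcdha9, Pcdha12, Pcdhac1 and Pcdhac2 passed only through brain, so their direction and call were fixed in advance. The members with the smallest p were picked by their estimates in these data. Their adjusted p stayed at 0.676 or more, far from the threshold. Other named members were compared under the replicate block alone, where estimates near 0 changed sign for Pcdhb19 (0.00091 to -0.0038) and Pcdhgb6 (-0.01 to 0.01) in brain and Pcdhb14 (0.02 to -0.04) in liver. The 35 alternative values of the array sums moved by less than 1 SD, though some crossed 0, such as the alpha sum in brain at -0.03 (log2) without replicate 1 of the wild type. Leaving out 1 library gave medians between 0.01 and 0.10 in brain and between 0.01 and 0.11 in liver for knockout against wild type. Between brain and liver the median over 27 members ran from 3.25 (without replicate 1 of wild-type brain) to 3.65 in the wild type and from 3.31 to 3.52 in the knockout. With library totals it was 4.32 and 4.27. If all members tested are counted, 57 of 57 were higher in brain in each genotype, 30 of them through the filter in brain. Leaving out both brain libraries of one number, chosen after seeing the data, gave brain medians of 0.08, 0.12 and -0.02 and called 0 members.

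With the replicate block, the brain comparison called 0 members with 1 at an unadjusted p under 0.05 (Pcdha5, 0.34 ± 0.14, edgeR adjusted p = 0.996), beside 2.25% of all genes under the block. Same-numbered brain libraries deviated together at 0.66, 0.66 and 0.02, so they were not taken as paired, and 2 of 3 libraries correlated best with their own number. Brain and liver libraries with one number correlated at 0.02 to 0.07. The block changed no call of a member in any comparison; over all genes it called 2 in liver and 2 in the interaction, where 0 were called without it. Over all genes DESeq2 called 10 in liver and 1 in the interaction, and no filter beyond 1 count gave 4 in liver. In liver, whose libraries are the deeper ones, low levels limit what can be read: the 14 alpha genes and 8 beta genes lay at or under 3 counts on average in the wild type, and 13 of 27 intervals stayed within 2-fold.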
